A study of Rattus norvegicus with 16 samples.

Results

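A set of 6 genes that mark neurons using gamma-aminobutyric acid (GABA), the main inhibitory transmitter of the brain, was followed through bulk RNA-seq of the rat nucleus basalis of Meynert. They were chosen by Ensembl identifier, with the condition that the chromosome in the annotated count files match, and all 6 met it, of 32883 genes in the files. Gad1, Gad2 and Slc32a1 are broad markers of GABA neurons, and Pvalb, Sst and Npy mark classes of such neurons. All 16 libraries, in every group, were from ChAT::Cre animals on the Long Evans strain, whose Cre recombinase is driven by the choline acetyltransferase gene, and the rats were 70 days old or more. Female rats under stress, female controls, male rats under stress and male controls each had 4 libraries. The sample labels do not name the stressor. Nor do they say whether the libraries of a group are different rats, and the spread behind each p-value may then be technical.

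Glutamate decarboxylase makes GABA from glutamate. Gad1 encodes the larger form of the enzyme, which supplies GABA throughout the cell, and Gad2 the smaller form, which is concentrated at nerve terminals. Slc32a1 encodes the transporter that loads GABA into synaptic vesicles. In the basal forebrain GABA neurons lie among the cholinergic neurons, and those that express Pvalb, a calcium-binding protein of fast-firing cells, project to the cortex. Sst encodes the peptide somatostatin, which neurons of another inhibitory class release beside GABA, and Npy encodes neuropeptide Y, often made by the same cells as somatostatin.

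The promoters are shown for the 3 broad markers, whose levels varied together between libraries, as described further on. Gad1 also varied with Pvalb. Whether the promoters have a part in this was not tested. Each sequence is the 250 bases before the gene start in RefSeq's GRCr8 build, read 5′ to 3′ on the gene's strand. Capitals mark matches to the letters of the TATA box (TATAAA) or the GC box (GGGCGG) on either strand. The TATAAA of Gad1 begins at position -213 from the start, and whether it acts as a TATA box was not tested.
Gad1 (chr3:75777202-75777451, plus strand): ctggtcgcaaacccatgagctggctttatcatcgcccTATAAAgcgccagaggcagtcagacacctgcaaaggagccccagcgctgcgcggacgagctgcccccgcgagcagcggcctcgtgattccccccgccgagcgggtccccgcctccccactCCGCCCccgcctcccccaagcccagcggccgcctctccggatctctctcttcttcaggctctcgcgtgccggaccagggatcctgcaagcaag
Gad2 (chr17:89671468-89671717, plus strand): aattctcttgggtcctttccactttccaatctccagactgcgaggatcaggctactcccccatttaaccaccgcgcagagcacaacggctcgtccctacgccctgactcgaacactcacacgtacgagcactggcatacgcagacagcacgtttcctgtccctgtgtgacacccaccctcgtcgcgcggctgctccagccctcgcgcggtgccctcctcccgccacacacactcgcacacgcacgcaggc
Slc32a1 (chr3:167686995-167687244, plus strand): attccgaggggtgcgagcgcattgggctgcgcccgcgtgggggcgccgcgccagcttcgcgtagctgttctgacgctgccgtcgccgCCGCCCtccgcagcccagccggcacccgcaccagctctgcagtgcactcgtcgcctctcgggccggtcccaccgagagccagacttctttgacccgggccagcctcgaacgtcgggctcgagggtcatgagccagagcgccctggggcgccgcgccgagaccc

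All 6 genes had an entry in the RefSeq promoter table, whose windows of 300 bases run 50 bases past the start. The promoters of Gad1, Gad2 and Slc32a1 held 23, 22 and 34 CpG dinucleotides in the 250 bases before the start, against a median of 5 over the 33469 promoters in the table. Pvalb had 21, Npy 17 and Sst 8. Over the windows of 300 bases the GC box was found in 4 of the 6 genes (Gad1, Slc32a1, Pvalb and Npy) and in 33.1% of all promoters, and TATAAA in 1 of the 6 (Gad1) and in 14.2% of all. The full cyclic AMP response element, TGACGTCA, was found in 1 of the 6, Sst, and in 1.83% of all promoters. The Sst element is shown in capitals because it is the textbook control element of that gene, and it starts 2 bases after the RefSeq start. This position holds for that annotated start alone, and other starts of the gene were not examined.
Sst (GRCr8, chr11:90461537-90461566, plus strand): gcctccttggcTGACGTCAgagagagagtt
The full palindromic consensus of the glucocorticoid response element, searched on both strands, was found in none of the 6 windows and in 0.0149% of all promoters. A match of letters is a description of the window and does not show binding.

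Of the 16 libraries 13 were counted with HTSeq, with totals of 22.7 to 38.2 M (mega) counts, and 3 with featureCounts, with 63.1 to 73.8 M. The featureCounts libraries were female control 4, male stress 1 and male control 4, named by group and by replicate number in accession order. Mitochondrial genes took 64.2% to 82.5% of the counts, and both ends of this range were featureCounts libraries, female control 4 and male stress 1. Markers of cholinergic, striatal, glutamatergic and glial cells could not be looked up, because the gene name table used here pairs no Ensembl identifier with a name, so the dissected tissue was not checked against its cell types. In bulk tissue, fewer cells of a type and less RNA per cell cannot be told apart.

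Of the 6 genes, 5 were well measured and 1 was not. Npy (ENSRNOG00000009768, chromosome 4, 79557854 to 79565097 on Rnor_6.0) had a count of 0 in all 13 HTSeq libraries, which allows at most 0.0786 to 0.132 counts per M in a library (3 counts of its total, counting error only). In the featureCounts libraries it had 3 counts in female control 4, 5 in male stress 1 and 6 in male control 4. A second gene, ENSRNOG00000046449 (chromosome 4, 79573998 to 79581208), lies 8901 bases downstream on the same strand, has 4 exons as Npy does, and shares the lengths of 2 of them, 81 and 188 bases. It also had 0 counts in every HTSeq library and 5 to 8 in the featureCounts libraries. This neighbour was looked for after the counts of Npy had been seen, and whether reads that match both genes were left out of the counts was not tested. The Npy count is therefore uncertain, Npy did not pass the filter on low counts, and no fold change is given for it.

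The other 5 genes had at least 313 counts in every library, and their coordinates are also on Rnor_6.0. Exons of these 5 genes and of Npy overlap no other annotated gene. Levels were compared between genes as counts per M after TMM normalisation (CPM) divided by exon length in kb. Over the 16 libraries Sst (ENSRNOG00000001837, chromosome 11, 80358211 to 80359444) had 88.7 ± 26.0 CPM per kb (SD, n = 16) and Gad2 (ENSRNOG00000018200, chromosome 17, 89171250 to 89238040) 85.3 ± 15.1 CPM per kb. Both stood above 99.3% of the 14241 genes tested. Their order was not fixed, since Sst was above Gad2 in 8 of 16 libraries. Gad1 (ENSRNOG00000000007, chromosome 3, 56861396 to 56902157) followed at 29.7 ± 5.0 CPM per kb, below Gad2 in 16 of 16 libraries and 2.87-fold lower in the mean. Pvalb (ENSRNOG00000006471, chromosome 7, 119429019 to 119441487) had 28.0 ± 7.6 CPM per kb and could not be ordered against Gad1, which was higher in 8 of 16 libraries. Slc32a1 (ENSRNOG00000015393, chromosome 3, 155103150 to 155107817) was lowest at 18.5 ± 3.0 CPM per kb, below Pvalb in 14 of 16 libraries. The exons of Pvalb and Sst sum to only 537 and 613 bases, so their values per kb depend more on the annotated ends than those of Gad2, with 5561 bases.

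**Figure D1:**
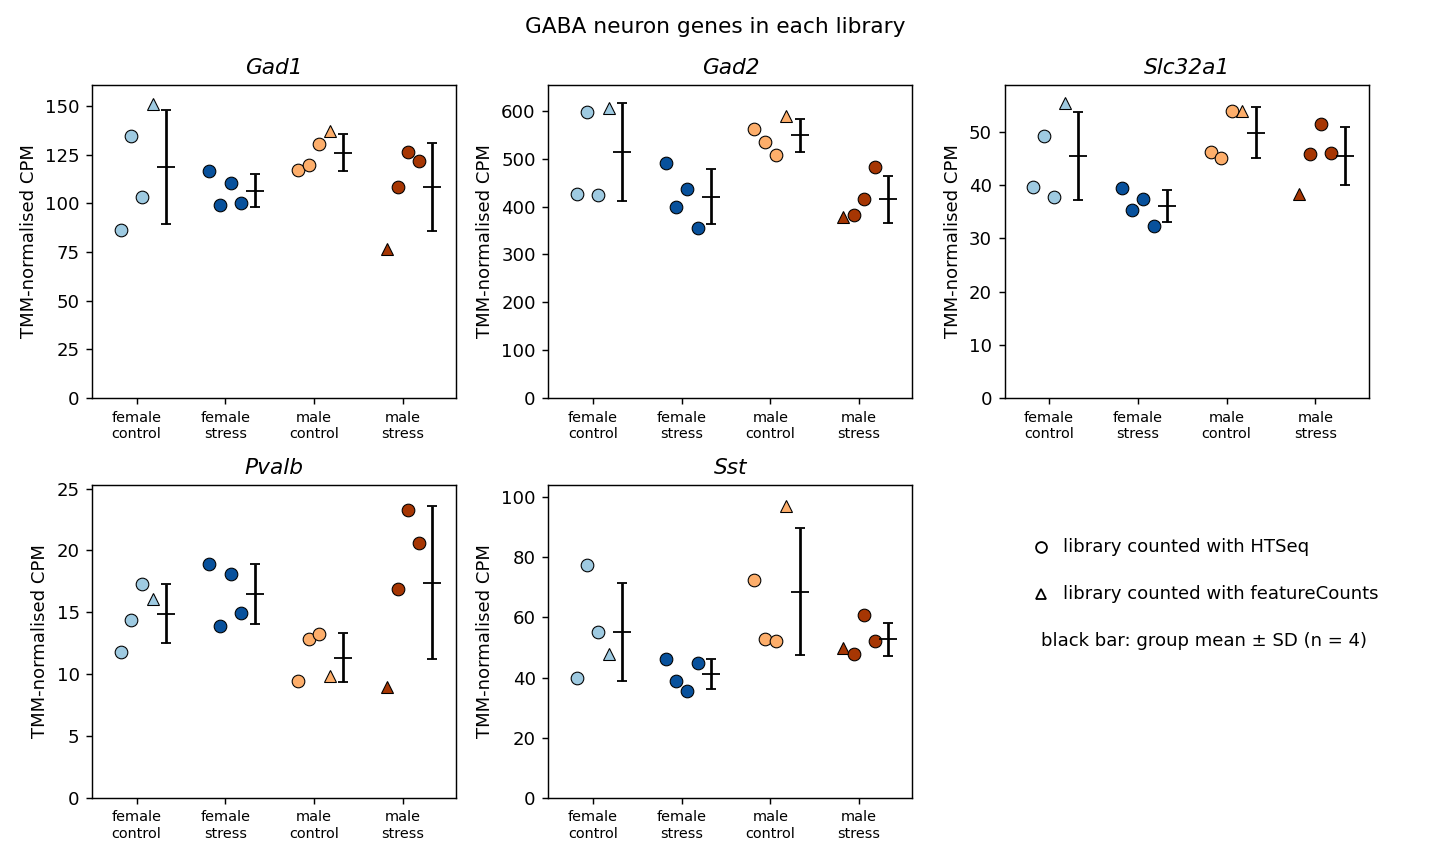
Level of each gene (vertical axis, TMM-normalised CPM, starting at 0) in each library of the 4 groups, circles for HTSeq and triangles for featureCounts libraries, with the group mean ± SD (n = 4). Gad2 lay at 378 to 484 CPM in stressed males and at 508 to 589 CPM in male controls. Pvalb in 3 of 4 stressed males lay above every male control, and in the remaining one below every male control. The shares of all genes with such patterns were not computed.

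The groups were first compared for stress, the subject of the series. By edgeR's quasi-likelihood test over all 14241 genes, 0 of the 5 tested members passed an adjusted p of 0.05 for stress in females, in males or on average over the sexes, where 0.0632%, 0.119% and 0.337% of all genes were called. Before adjustment 3 of 5 members had p under 0.05 in females, 2 of 5 in males and 4 of 5 on average, against 6.48%, 7.70% and 10.2% of all genes. In the HTSeq libraries alone these were 1, 2 and 3 of 5 (830, 889 and 1092 of 14402 genes). With the counting tool as covariate they were 1, 2 and 4 of 5 (781, 1174 and 1366 of 14241 genes). Members that varied together between libraries, as described below, are not separate results. DESeq2 called 0, 0 and 1 of the 5 (27, 31 and 103 of all genes), and limma voom 0 in each (8, 11 and 47 of all genes). The fold changes of Gad1, Gad2, Slc32a1 and Sst were below 0 in both sexes and that of Pvalb was above 0 in both. The median log2 fold change of the 5 was -0.29 in females and -0.22 in males, against 0.01 and 0.00 over all genes, and on average over the sexes it was -0.24 (quartiles of all genes -0.11 and 0.14).

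Gad2, the terminal form of the GABA-making enzyme, came nearest to a call. In males the stressed libraries had 378, 382, 416 and 484 CPM and the controls 563, 535, 508 and 589 CPM. The groups did not overlap: 4 of 4 stressed males lay below every male control. The share of all tested genes without overlap in this comparison was not computed. By exact permutation, 4 against 4 libraries separate by chance with a probability of 0.0286. The levels of the other tested genes overlapped in both sexes. The means were 415 ± 49 and 549 ± 35 CPM (SD, n = 4), a log2 fold change of -0.40 (SE 0.13, 95% interval -0.67 to -0.13, adjusted p = 0.395 by edgeR). In females the stressed libraries had 492, 399, 437 and 355 CPM and the controls 426, 597, 424 and 607 CPM. These groups overlapped, with 2 of 4 stressed females below every female control, and the log2 fold change was -0.29 (SE 0.13, adjusted p = 0.758). On average over the sexes the Gad2 level with stress was 0.787 times that without (log2 fold change -0.35, SE 0.09, 95% interval of the fold 0.690 to 0.898, unadjusted p = 0.000926, adjusted p = 0.131 by edgeR). DESeq2 called this average effect at an adjusted p of 0.0377 and the edgeR fit without a filter on low counts at 0.0212, each with a log2 fold change of -0.35. Without the featureCounts libraries it was -0.26 (adjusted p = 0.528).

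Gad1, the other form of the enzyme, had a smaller difference. Stressed females had 116, 98.9, 110 and 100.3 CPM and female controls 86.4, 135, 103 and 151 CPM. Stressed males had 76.5, 109, 126 and 122 CPM and male controls 117, 119, 131 and 137 CPM. The groups overlapped in both sexes, and the lowest stressed male was male stress 1, a featureCounts library. The log2 fold change of Gad1 was -0.16 in females (SE 0.15, adjusted p = 0.893) and -0.22 in males (SE 0.15, adjusted p = 0.776). On average it was -0.19, with a 95% interval of the fold from 0.753 to 1.02. In the HTSeq libraries alone the average was -0.03, and it was -0.12 without female control 4 and -0.12 without male stress 1.

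Slc32a1, the vesicular transporter, had its larger difference in females. Their libraries had 39.4, 35.3, 37.4 and 32.3 CPM, and the female controls 39.6, 49.3, 37.8 and 55.4 CPM. Of the stressed females 3 of 4 lay below every control, and the log2 fold change was -0.34 (SE 0.12, 95% interval -0.59 to -0.09, unadjusted p = 0.0103, adjusted p = 0.652 by edgeR). Without the featureCounts libraries, of which female control 4 was the highest of its group, it was -0.23. In males stressed libraries had 38.3, 45.9, 51.5 and 46.1 CPM and controls 46.3, 45.1, 53.9 and 54.0 CPM, which overlapped, and the log2 fold change was -0.13 (SE 0.12, adjusted p = 0.851). The average over the sexes was -0.24 (SE 0.09, unadjusted p = 0.0109, adjusted p = 0.314 by edgeR), and -0.12 in the HTSeq libraries alone.

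Sst, the somatostatin gene, had the most negative average of the 5. Stressed females had 46.2, 38.7, 35.6 and 44.7 CPM and female controls 39.7, 77.5, 55.1 and 48.0 CPM. Stressed males had 50.0, 47.9, 60.6 and 52.1 CPM and male controls 72.5, 52.7, 52.0 and 97.1 CPM. In each sex 2 of 4 stressed libraries lay below every control, and the control libraries were the more scattered. Their SD was 16.2 CPM in females and 21.2 CPM in males, against 5.0 and 5.6 CPM in the stressed groups. The log2 fold change was -0.41 in females (SE 0.19, adjusted p = 0.763), -0.38 in males (SE 0.19, adjusted p = 0.660) and -0.40 on average (SE 0.14, unadjusted p = 0.00933, adjusted p = 0.303 by edgeR). Without a filter on low counts the average passed (-0.40, adjusted p = 0.00134). The value in females was -0.21 without female control 2, the highest of its group. The value in males was -0.14 without the featureCounts libraries, of which male control 4 was the highest of its group, and -0.17 without male control 4 alone. In females the value without the featureCounts libraries was larger in size, -0.48 (unadjusted p = 0.0136, adjusted p = 0.731 by edgeR). The average in that setting was -0.31 (adjusted p = 0.575 by edgeR).

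Pvalb, the calcium-binding protein of fast-firing neurons, was the member with positive fold changes. Stressed males had 8.97, 16.8, 23.2 and 20.6 CPM and male controls 9.41, 12.8, 13.3 and 9.82 CPM. Of the stressed males 3 of 4 lay above every control, and the remaining one, male stress 1, lay below every control. The log2 fold change was 0.61 (SE 0.21, 95% interval of the fold 1.13 to 2.08, unadjusted p = 0.00873, adjusted p = 0.452 by edgeR). Without male stress 1, which was counted with featureCounts and had the highest mitochondrial share, it was 0.84 and passed (adjusted p = 0.0435). It also passed without a filter on low counts (0.61, adjusted p = 0.00625), but not without all 3 featureCounts libraries (0.77, adjusted p = 0.114). Stressed females had 18.9, 13.9, 18.1 and 14.98 CPM and female controls 11.8, 14.4, 17.3 and 16.1 CPM, which overlapped, and the log2 fold change was 0.14 (SE 0.21, adjusted p = 0.945). On average over the sexes the Pvalb level was 1.30-fold higher with stress (95% interval 1.05 to 1.61, unadjusted p = 0.0195, adjusted p = 0.376 by edgeR), which passed without a filter on low counts (log2 fold change 0.37, adjusted p = 0.0246).

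**Figure D2:**
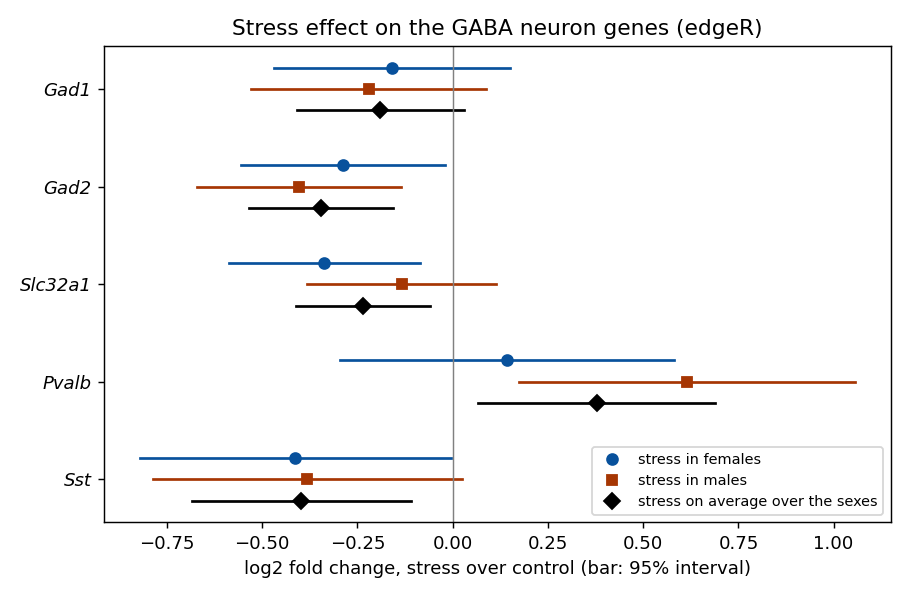
Log2 fold change of stress over control (horizontal axis) for each gene in females, in males and on average, with the 95% interval from edgeR's fit. On average the values of Gad1, Gad2, Slc32a1 and Sst lay between -0.40 and -0.19 and that of Pvalb at 0.38, and no gene passed the adjusted threshold.

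Did the stress effect on these genes depend on sex? By edgeR 0 of the 5 members were called for the difference of the stress effects, nor was any other gene (0%), with 4.01% of all genes and 0 of the 5 members at an unadjusted p under 0.05, while DESeq2 called 1 gene of all and 0 members. The widest difference was that of Pvalb, female minus male, with a log2 value of -0.47 (95% interval -1.09 to 0.15, adjusted p = 1.0). For Gad2 it was 0.11 (95% interval -0.26 to 0.49) and for Sst -0.03 (95% interval -0.60 to 0.54). These 3 intervals span 0. In the HTSeq libraries alone the Sst value was -0.33, and its 95% interval, -0.87 to 0.20, also spanned 0. For Pvalb the interval left out 0 without male stress 1 (-0.70, 95% interval -1.14 to -0.25), in the HTSeq libraries alone (-0.59, 95% interval -1.06 to -0.11) and without a filter on low counts (-0.47, 95% interval -0.86 to -0.09). None of these 3 values passed after adjustment over all genes (adjusted p = 0.9997, 0.999 and 0.848 by edgeR).

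Females and males were also compared directly. In controls 0 of 5 members were called, against 0.112% of all genes, and in stressed rats 0 of 5, against 0.0913%. Before adjustment 0 of 5 and 1 of 5 members had p under 0.05, against 6.19% and 5.68% of all genes. In stressed rats Slc32a1 had 36.1 ± 3.0 CPM in females and 45.4 ± 5.4 CPM in males (SD, n = 4; log2 fold change -0.33, SE 0.12, unadjusted p = 0.0115, adjusted p = 0.819 by edgeR), and Sst had 41.3 ± 5.0 and 52.7 ± 5.6 CPM (log2 fold change -0.35, adjusted p = 0.881). In controls Pvalb had 14.9 ± 2.4 CPM in females and 11.3 ± 2.0 CPM in males (log2 fold change 0.40, SE 0.21, adjusted p = 0.836). Gad1 and Gad2 differed by at most 0.10 on the log2 scale between the sexes in both conditions.

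Ratios between genes of the same library do not depend on sequencing depth or on normalisation, so each gene was also set against Gad1. Of 12 tests (4 ratios, stress in females, in males and on average), 1 passed a Benjamini-Hochberg adjusted p of 0.05. This was Pvalb to Gad1 on average over the sexes, which was 1.45-fold higher with stress (log2 difference 0.53, two-sided exact permutation p = 0.00367, adjusted p = 0.0441). In males the ratio, as counts per kb, was 0.844, 1.12, 1.32 and 1.22 in stressed libraries and 0.578, 0.772, 0.731 and 0.516 in controls. All 4 stressed males, male stress 1 included, lay above every control, a 1.73-fold difference (exact permutation p = 0.0286, the smallest that 4 against 4 libraries can give, adjusted p = 0.114). In females the ratio was 1.17, 1.01, 1.18 and 1.08 with stress and 0.980, 0.771, 1.20 and 0.768 without. These groups overlapped (1.21-fold, exact permutation p = 0.171, adjusted p = 0.343), and whether the ratio's change differed between sexes was not tested.

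The call on the Pvalb ratio was not stable to the choices made. Its size held between log2 differences of 0.48 and 0.69 in the alternatives run, but the adjusted p was 0.0857 in the HTSeq libraries alone and 0.0539 with Gad2 in place of Gad1, and of the 16 sets with 1 library left out it passed in 2, those without female control 3 and without male stress 1. The ratio of Slc32a1 to Gad1 was 0.549, 0.579, 0.549 and 0.522 in stressed females and 0.743, 0.593, 0.593 and 0.595 in female controls. The groups did not overlap, and the ratio was 0.875-fold in the mean (exact permutation p = 0.0286, adjusted p = 0.114), and 1.08-fold in males (exact permutation p = 0.314). The value in females was 0.925-fold without female control 1, the highest of its group. Against Gad2 in place of Gad1 it was 0.970-fold and the groups overlapped (exact permutation p = 0.429). Gad2 to Gad1 was 0.897-fold on average (exact permutation p = 0.0767, adjusted p = 0.230) and Sst to Gad1 0.887-fold (exact permutation p = 0.280, adjusted p = 0.377).

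**Figure D3:**
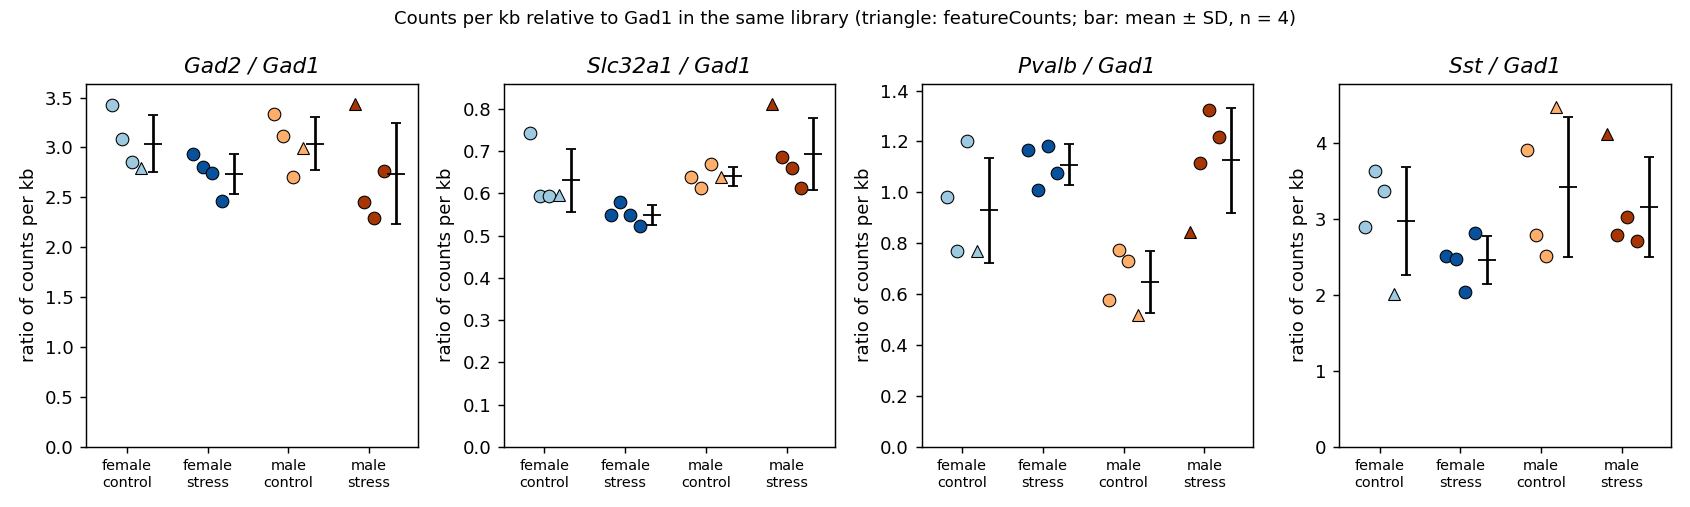
Ratio of each gene's counts per kb to those of Gad1 in the same library (vertical axes, starting at 0), by group, triangles for featureCounts libraries, with the mean ± SD (n = 4). The Pvalb ratio was 0.844 to 1.32 in stressed males and 0.516 to 0.772 in male controls, without overlap.

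The genes also varied between libraries of the same group. The SD of log2 CPM within groups was 0.37 for Pvalb and 0.32 for Sst, above 97.3% and 96.7% of the genes within 0.5 log2 units of the same level. It was 0.26 for Gad1 (above 90.0%), 0.20 for Gad2 and 0.18 for Slc32a1 (above 55.3% and 64.9%). After the group means were subtracted, Gad1 and Slc32a1 went up and down together over the 16 libraries (Pearson r = 0.89, Spearman rho = 0.93, permutation p = 0.00037 and 0.00025, adjusted over 10 pairs p = 0.0037 and 0.0025). With the 2 libraries farthest from the median of Gad1 left out, r was 0.94, and in the 13 HTSeq libraries 0.80 (adjusted p = 0.133).

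The other pairs were less tight. Gad1 with Gad2 gave r = 0.76 (rho = 0.83, adjusted permutation p = 0.0450 and 0.0305), and Gad2 with Slc32a1 r = 0.75 (rho = 0.82, adjusted permutation p = 0.0450 and 0.0305). The 2 farthest libraries were taken by the first gene of each pair, here Gad1 and Gad2. Without them these were 0.80 and 0.52 (adjusted permutation p = 0.0539 and 0.289), and in the HTSeq libraries 0.76 and 0.65 (adjusted permutation p = 0.176 and 0.210). Gad1 with Pvalb gave r = 0.72 (rho = 0.58, adjusted permutation p = 0.0450 and 0.103). Without the 2 farthest libraries its r was 0.23 (rho = 0.39), so the size of r depended on them. In the HTSeq libraries r was 0.59 and rho 0.65 (adjusted permutation p = 0.210 and 0.173). Sst was correlated with none of the other 4 past the threshold, with r from -0.004 with Pvalb to 0.43 with Gad2. In the 13 HTSeq libraries Sst gave r = 0.69 with Gad1 and 0.56 with Gad2 (adjusted permutation p = 0.261 and 0.302). By rank the change was smaller. There rho was 0.41 with Gad1 and 0.43 with Gad2, against 0.34 and 0.36 over all 16 libraries. Gad1 with Gad2 gave rho = 0.66 in the HTSeq libraries. The libraries share dissection, depth and counting tool, and what of the common variation comes from these was not tested.

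The mitochondrial share of each library was set against the levels, and its part in the results was not tested. After subtraction of group means it gave r = -0.69 with Gad1 (rho = -0.61), -0.57 with Slc32a1 (rho = -0.46), -0.52 with Pvalb (rho = -0.59), -0.37 with Gad2 (rho = -0.30) and 0.04 with Sst (rho = 0.04). None of the 5 passed a permutation test after adjustment over the 5 genes (adjusted permutation p = 0.0584 at the least for r and 0.0909 for rho). Without female control 4 and male stress 1, the libraries at the 2 ends of the share, r was -0.38 for Gad1, -0.08 for Slc32a1 and 0.02 for Gad2, while Pvalb kept r = -0.47 (rho = -0.57, adjusted permutation p = 0.749 and 0.381) and Sst had -0.09. These relations were looked at after the levels had been seen.

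**Figure D4:**
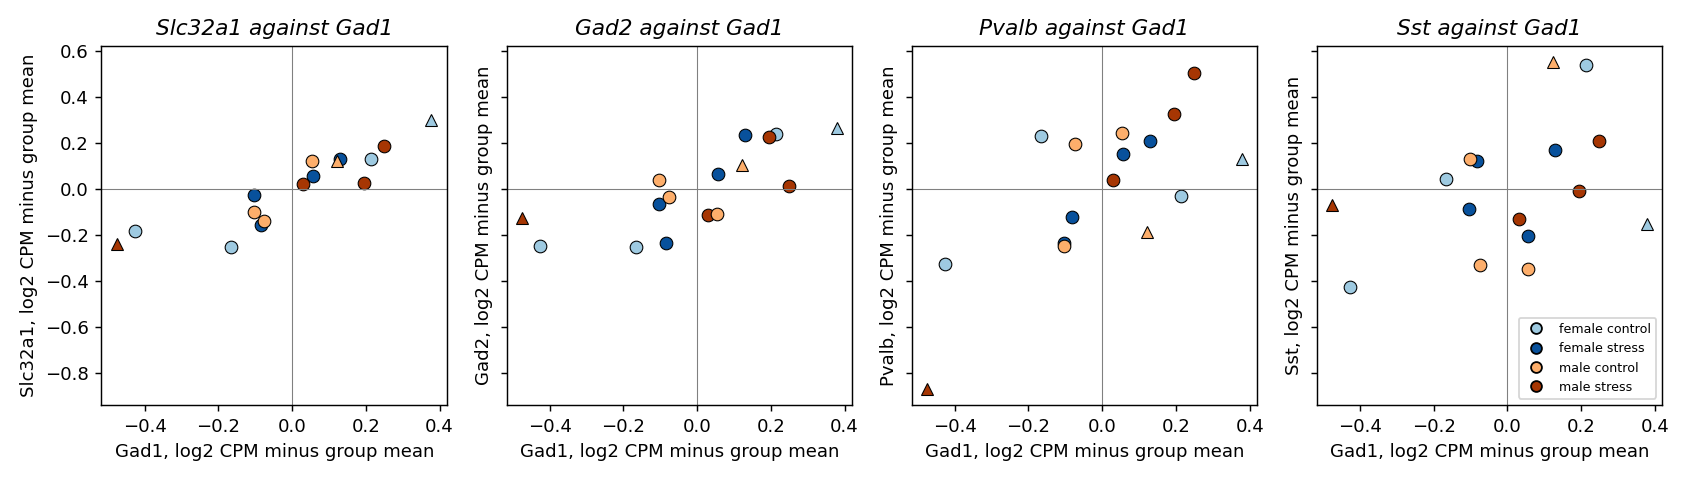
Deviation from the group mean in log2 CPM of Slc32a1, Gad2, Pvalb and Sst (vertical axes) against that of Gad1 (horizontal axes), 1 point per library, coloured by group, triangles for featureCounts libraries. Points of Slc32a1 follow Gad1 (r = 0.89) while those of Sst scatter (r = 0.39).

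Among the other 14240 genes tested, those most like Gad1 by the Pearson r of group-centred log2 CPM over the 16 libraries were ENSRNOG00000018972 on chromosome 17 (r = 0.96) and ENSRNOG00000040166 on chromosome 2 (r = 0.96), which the files do not name. Slc32a1 ranked 16 and Gad2 225 in likeness to Gad1, while Gad1 ranked 12 in likeness to Slc32a1. In likeness to Pvalb, Gad1 ranked 75 and Sst 7113. Pvalb ranked 375 and Sst 2481 in likeness to Gad1.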

How the data were processed

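RNA of the nucleus basalis was sequenced as paired ends after NuGen Ovation library preparation, per the labels' protocols. STAR 2.5.2a, HTSeq, bedtools, DESeq and limma with the build Rnor_6.0 are named in the submitters' processing notes. The authors deposited whole-number read counts for each Ensembl gene. For 3 libraries these came from featureCounts 1.6.1 with Ensembl release 92 and no pair or strand option, per the file headers. The strand and overlap settings of the HTSeq counts are not given in the sources used here. HTSeq's summary lines, which belong to no gene (44.8% to 64.7% of a file's entries), were removed before library sizes were taken.

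Coordinates of genes are 1-based on Rnor_6.0. Of the 47357 genes in the RefSeq name table (GRCr8), 0 matched by Ensembl identifier, so the gene lists and cell type markers drawn up for this work could not be applied, and the 6 genes carry the names given with their identifiers. The rule was to describe all 6 and to find the 2 genes most like each. Genes without a name were to be printed for at most 2 in all, so only those most like Gad1 are given. The members and lists were chosen with earlier results of these data known.

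edgeR 4.0.16 in R 4.3.3 (TMM, filterByExpr, robust quasi-likelihood fits of 4 group means to all 16 libraries) gave fold changes, with Benjamini-Hochberg adjustment over 14241 genes. Alternatives were DESeq2 1.42.0, limma 3.58.1 (voom), no filter, HTSeq libraries only, the counting tool as covariate, no mitochondrial genes, each sex alone and each library left out. Correlations used 100000 permutations of libraries within groups. The design planned 15 pairs, of which those with Npy were dropped.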

Additional observations from a re-analysis of the deposited data

Results flagged for a closer look

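The ratio of Slc32a1 to Gad1, as counts per kb, was 0.743 in female control 1 and 0.593 to 0.595 in the other 3 female controls, a gap that makes this library stand apart from its group. Among 36 groups of 4 libraries screened (5 levels and 4 ratios in 4 groups) it was the only one, where chance flags about 1 in 20 groups. ENSRNOG00000046449, the gene beside Npy that no comparison used, reached 8 counts in the featureCounts libraries and had 0 in the HTSeq libraries. The featureCounts libraries had higher total counts, so these counts are not on the same scale.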

How the results depend on the processing

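Of the 340 values of the 5 tested genes in the stress comparisons under alternatives, 334 stayed on the same side of the threshold with the same sign, 6 passed where the reported fit did not, and 0 reversed. The members called were 1 of 5 with DESeq2 on average (Gad2, -0.35), where 103 of 14237 genes were called. Without a filter on low counts they were 1 in males (Pvalb, 0.61) and 3 on average (Gad2 -0.35, Pvalb 0.37, Sst -0.40). In that setting 88 genes were called in males and 207 on average, of 25215 tested. Its SE on average was 0.10 for Pvalb and 0.09 for Sst, against 0.15 and 0.14 in the reported fit. For Gad2 the SE was 0.09 in both fits. With 1 library left out the members called were 0 to 1 in males, where Pvalb ranged from 0.44 to 0.84, passing without male stress 1.

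Genes called over the whole table moved more. With DESeq2 they were 27 in females, 31 in males, 103 on average and 1 for the difference between sexes. Without a filter they were 105, 88, 207 and 36, and 54 and 105 between the sexes in controls and stressed rats. In the HTSeq libraries they were 14, 5 and 29, and 10 between sexes in controls. In males limma voom called 11 and each sex fitted alone 27. Leaving out 1 library gave 6 to 13 genes in females, 7 to 21 in males and 28 to 56 on average.

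Values near 0 changed sign. Between sexes in stressed rats these were Gad1 (0.0067) and Pvalb (0.037) with voom and Gad2 (-0.023) in HTSeq libraries. With Gad2 as denominator, the ratio of Slc32a1 on average was 0.11 and that of Sst in males 0.070. With 1 library left out the ranges crossed 0 for the sex difference of the stress effect in Gad1 (-0.074 to 0.20) and Sst (-0.25 to 0.18). They did so between sexes for Gad1 in controls (-0.22 to 0.041) and, in stressed rats, for Gad1 (-0.16 to 0.060), Gad2 (-0.067 to 0.10) and Pvalb (-0.30 to 0.10), and for Sst to Gad1 in males (-0.23 to 0.048). Pvalb to Gad1 on average was 0.51 in HTSeq libraries, 0.69 over Gad2 and 0.48 to 0.60 with 1 library left out. Correlated pairs numbered 4, but 0 in HTSeq libraries and 1 without the 2 farthest libraries. The cause of these changes was not tested.

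No paired analysis was possible because the labels number the samples of each group with numbers that no other group uses. The 5 tested genes had at least 313 counts in every library, while Npy had too few to test.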
